A study of Mus musculus with 11 samples.

Results

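Bdnf, Ntrk2, Nptx1, Nptx2, Nptxr, Homer1, Scg2 and Vgf are 8 genes whose products are secreted or act at the synapse. They are grouped as late activity-regulated genes, a description best known for Bdnf, Nptx2, the short form of Homer1, Scg2 and Vgf, with Ntrk2, Nptx1 and Nptxr as their receptors and partners. They were taken by name from a fixed list, and all 8 of them were found among the 47069 genes of the count files. RNA-seq was done on 11 libraries of C57BL/6 mouse retina. They comprised 2 wild-type libraries and 3 Brn3b-Kir2.1 libraries at postnatal day 4 (P4), and 3 of each genotype at postnatal day 8 (P8). By its title the study asks whether correlated retinal activity around birth is needed for visual axons to wire non-image-forming nuclei. Brn3b-Kir2.1 mice carry a human Kir2.1-eYFP transgene, written as a CAG promoter and a floxed STOP cassette before the coding sequence, together with a Brn3b-Cre driver that is active in retinal ganglion cells. Kir2.1 is an inwardly rectifying potassium channel whose expression makes a neuron harder to excite.

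The labels leave open what the control carries, since the genotype field gives wild type and the protocol names Brn3b-cre mice. If the protocol is right, all groups share the Cre allele. The later age is P8 in the age field and P11 in the protocol, and the field values are used here. The source field names retinal ganglion cells, the tissue field names retina, and the protocol dissociates whole retinas with no sorting step. The marker lists of rods, amacrine cells, bipolar cells and Mueller glia had counts in every library, so the libraries were read as whole retina. The transgene is a human sequence and the mouse gene counts do not check its presence. How many animals stand behind a library is not given, so p-values measure only the spread between these libraries, which may in part be technical.

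Activity-regulated transcription runs in waves. Calcium entry activates kinases that phosphorylate CREB and related factors, early transcription factors appear first, and effector genes such as Bdnf, Nptx2, Scg2 and Vgf follow. BDNF is a neurotrophin that binds the receptor TrkB, the product of Ntrk2, and supports the survival and branching of neurons, retinal ganglion cells among them. The neuronal pentraxins NPTX1 and NPTX2 are secreted, the pentraxin receptor NPTXR is held in the membrane, and together they cluster AMPA-type glutamate receptors. HOMER1 ties metabotropic glutamate receptors to the postsynaptic scaffold, and a short activity-induced form competes with the long forms. SCG2 and VGF are cargo of dense-core vesicles and are cut into neuropeptides. In the newborn mouse retina, spontaneous waves of activity pass across ganglion cells, driven first by acetylcholine and later by glutamate.

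CREB binds the cAMP response element, whose full letters TGACGTCA read the same on both strands and whose core is TGACG. RefSeq promoter windows (GRCm38.p6, 250 bases before to 50 bases after a start) were found for 4 of the 8 members, with 7 windows for Bdnf, 2 for Homer1 and 1 each for Ntrk2 and Scg2. The stretches below are shown because they hold these letters in capitals, each as 30 bases read 5′ to 3′ on the gene's strand. The first is at chr1:79440076-79440105 (minus strand), 68 bases before the Scg2 start. The next 3 are from the first Homer1 window (plus strand), at chr13:93303689-93303718, chr13:93303705-93303734 and chr13:93303731-93303760. The last is from the third Bdnf window, at chr2:109692389-109692418 (plus strand), and has the core on the opposite strand. Numbers after a name give bases from the RefSeq start, and all these stretches lie inside the genes' longer GENCODE spans.
Scg2: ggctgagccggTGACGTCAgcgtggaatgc
Homer1 at -56: ccccgcacaagcTGACGtgagcggagggtg
Homer1 at -40: gtgagcggagggTGACGtatgtgcggagag
Homer1 at -14: agaggagcgcgcTGACGttgctatttaaag
Bdnf at -35: tatgacagctcaCGTCAaggcagcgtggag

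Of the 4 members with a window, Scg2 alone had the full element, which 588 of 32851 RefSeq mouse windows (1.79%) hold. The core, which the full element contains on both strands, is in 6837 windows (20.8%). The other Bdnf windows, the second Homer1 window and the Ntrk2 window held neither run of letters. These are matches of letters only.

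Per kilobase of exon, Scg2 was the highest of the 8 members in 10 of 11 libraries. Its level ran from 11.1 to 99.9 RPKM (TMM-scaled CPM per kilobase of exonic length in GENCODE mouse release M21). Lengths are the merged exons of all annotated transcripts, and the order of the genes depends on that choice. Nptxr, which spanned 6.10 to 22.2 RPKM, was above Scg2 in 1 library, Kir2.1 P4 replicate 2. Nptx2 (6.61 to 14.5 RPKM) and Nptx1 (4.07 to 10.3 RPKM) came next in most libraries, and Ntrk2 (2.62 to 8.85 RPKM) and Homer1 (3.88 to 6.34 RPKM) crossed each other. Bdnf, at 0.324 to 1.15 RPKM, was the lowest in 9 libraries and Vgf in the other 2. All 8 passed the filter on low counts. Bdnf rested on 22 to 88 counts a library and Vgf on 21 to 193, and the other members on at least 194. All other levels are TMM-scaled CPM, compared within 1 gene at a time.

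Gene counts per library ranged from 9362215 (Kir2.1 P8 replicate 2) to 12478838 (Kir2.1 P4 replicate 2). A few libraries stood apart from their group. Wild-type P4 replicate 2 had a summed level of 6 markers of dividing progenitors of 841 CPM, against 1883 to 2434 in the other 4 P4 libraries, and the highest rod marker sum at that age (1179 CPM against 224 to 747). The wild-type P8 libraries spread widely in rod markers, with sums of 752.5, 3049 and 6837 CPM in replicates 1, 2 and 3, while the Kir2.1 P8 libraries lay between 6380 and 6614. Lens marker sums were highest in wild-type P8 replicate 3 (25.7 CPM, against 0.0916 and 0.595 CPM in its group). The next highest was that of Kir2.1 P8 replicate 2 (15.1 CPM). Kir2.1 P8 replicate 2 had at least 1 count in 31325 genes, against 22609 to 24591 in the rest. Of its uniquely placed reads 69.4% fell in no counted feature, against 57.0% to 62.4% in the other libraries. Its summed markers of pigment epithelium (15.65 CPM) and erythrocytes (19.3 CPM) were the highest of all libraries.

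**Figure D1:**
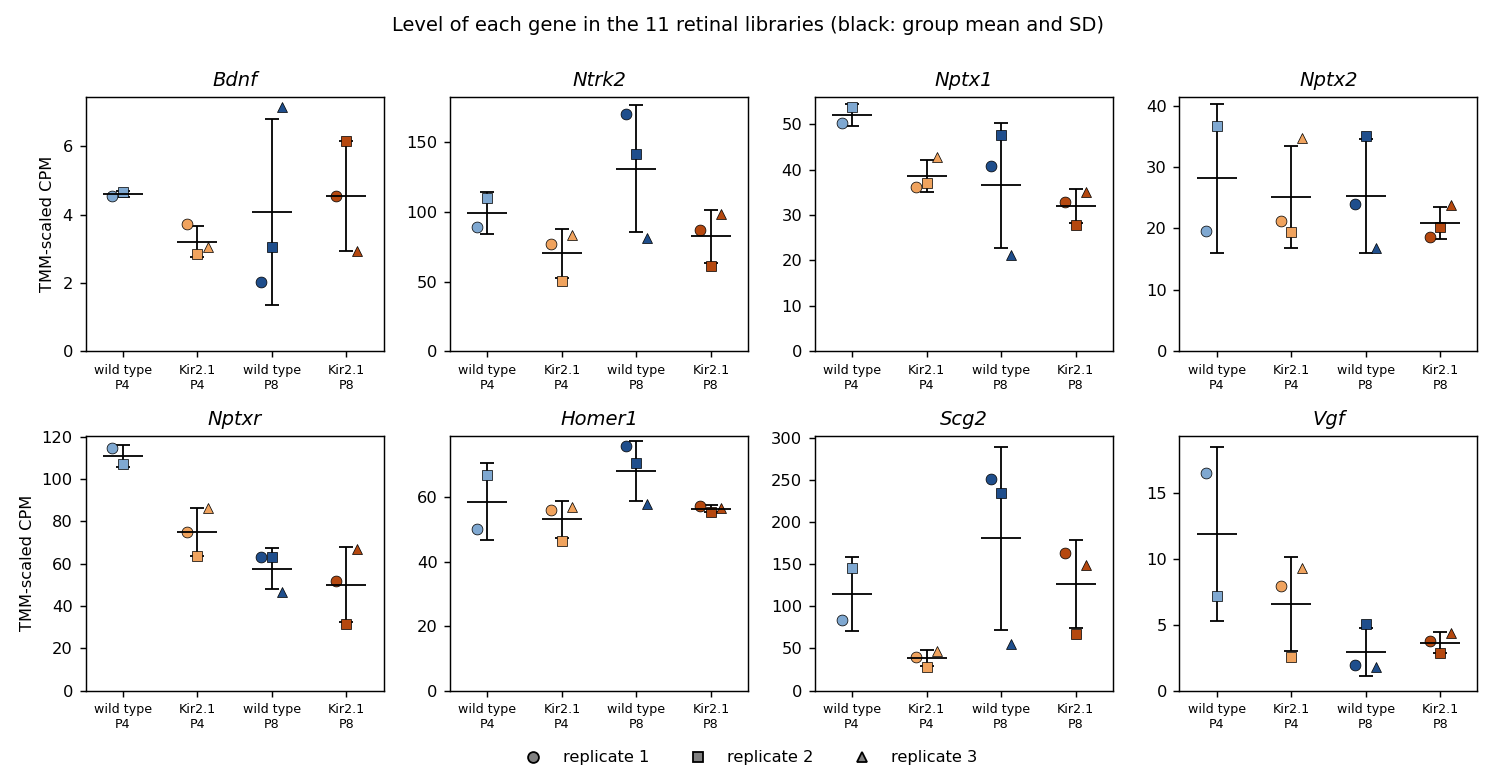
Level of each of the 8 genes in every library (TMM-scaled CPM, linear axis from 0), with symbols for the replicate numbers and black bars for the group mean ± SD. Scg2 has its 3 lowest values in Kir2.1 at P4 (28.0 to 47.3 CPM), and wild-type P8 replicate 3 (dark blue triangle) is the lowest wild-type P8 library for every gene but Bdnf.

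At P4, before eye opening, every one of the 8 members had a fitted level below wild type in Kir2.1 retinas, and none passed the test. Scg2 had the largest difference, a level 2.97-fold lower, followed on the log2 scale by Vgf, Nptxr, Bdnf, Ntrk2 and Nptx1. With edgeR's quasi-likelihood test and Benjamini-Hochberg adjustment over 18188 genes, 0 of the 8 members were called at an adjusted p under 0.05, against 0 genes (0%) in the whole table. At an unadjusted p under 0.05, 2 members stood (Scg2 and Nptxr), beside 1314 of all genes (7.22%). On the same counts DESeq2 called 0 members and 34 genes in all, and voom called 0 of either.

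Scg2 encodes secretogranin II, a granin that helps dense-core vesicles to form and is the precursor of secretoneurin (ENSMUSG00000050711, protein-coding, chromosome 1, 79434669 to 79440120, minus strand, GRCm38). At P4 it had 83.7 and 146 CPM in the wild-type libraries, against 40.4, 28.0 and 47.3 CPM in the Kir2.1 libraries. All 3 Kir2.1 values lay below both wild-type values. Its log2 difference was -1.57 ± 0.53 (SE; unadjusted p = 0.0114, adjusted p = 0.677, edgeR). Leaving out a library moved the estimate between -1.92 (wild-type P4 replicate 1 left out) and -1.12 (replicate 2 left out). In the authors' deposited table the difference was -1.63 with an adjusted p of 1.69e-07. Which libraries and scaling that table rests on is not given in the sources used here. Its mean normalized count at P4 was 635 for Nptxr, below the 805 to 1341 counts of the P4 libraries here. For Ntrk2 it was 855, within the 659 to 1301 counts of those libraries. The table may thus rest on other counts.

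Vgf encodes a secreted neurotrophin-inducible propeptide (ENSMUSG00000037428, protein-coding, chromosome 5, 137026392 to 137033351, plus strand). Its P4 values were 16.5 and 7.19 CPM in wild type, against 7.91, 2.53 and 9.27 CPM in Kir2.1. Both groups were broad and overlapped. The log2 difference of -0.85 ± 0.56 (adjusted p = 0.747, edgeR) moved to -0.14 when wild-type P4 replicate 1 was left out and to -1.33 when replicate 2 was, so the size depended on which wild-type library was kept.

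The pentraxin receptor gene Nptxr (ENSMUSG00000022421, protein-coding, chromosome 15, 79786351 to 79804766, minus strand) had 115 and 107 CPM in wild-type retinas at P4, against 74.9, 63.6 and 86.3 CPM in Kir2.1. The groups did not overlap. The log2 difference was -0.57 ± 0.25 (adjusted p = 0.677, edgeR). Nptxr shares 890 exonic bases (17.2% of its exons) with Npcd on the same strand, and how reads there were counted is not given in the sources used here. Npcd was listed at 0 in all 11 libraries.

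Nptx1, the constitutive secreted pentraxin (ENSMUSG00000025582, protein-coding, chromosome 11, 119538719 to 119547753, minus strand), had 50.3 and 53.7 CPM in wild type at P4, against 36.2, 37.0 and 42.7 CPM in Kir2.1. These groups did not overlap either, with a log2 difference of -0.43 ± 0.26 (adjusted p = 0.730, edgeR). Nptx2, also called Narp, is the activity-inducible pentraxin (ENSMUSG00000059991, protein-coding, chromosome 5, 144545902 to 144557478, plus strand). Its P4 values were 19.6 and 36.7 CPM in wild type, against 21.2, 19.5 and 34.7 CPM in Kir2.1, so the groups covered the same range. Its log2 difference of -0.16 ± 0.34 turned to 0.36 without wild-type P4 replicate 2.

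Bdnf (ENSMUSG00000048482, protein-coding, chromosome 2, 109674700 to 109727007, plus strand) had 4.53 and 4.65 CPM in wild type at P4, against 3.72, 2.84 and 3.06 CPM in Kir2.1. The Kir2.1 values were all lower, and the log2 difference was -0.52 ± 0.49 (adjusted p = 0.826, edgeR). The authors' deposited table gives a log2 difference of 0.24 for Bdnf at P4 (adjusted p = 0.964), the opposite direction. The libraries and scaling behind that table are not given in the sources used here. Bdnf shares 896 exonic bases (14.4% of its exons) with the antisense gene Gm45346, which is not a row of the count files. The strand setting of the counting is not given in the sources used here, so antisense reads may be included.

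Its receptor gene Ntrk2 (ENSMUSG00000055254, protein-coding, chromosome 13, 58806569 to 59133970, plus strand) had 88.9 and 110.1 CPM in wild type at P4, against 77.4, 50.6 and 83.6 CPM in Kir2.1. All 3 Kir2.1 values lay below both wild-type values. The log2 difference was -0.50 ± 0.30 (adjusted p = 0.730, edgeR), and -0.30 when Kir2.1 P4 replicate 2 was left out. In the authors' deposited table it was -0.84, with an adjusted p of 0.0118. Scg2 and Ntrk2 were the 2 members that this table called at P4, among 314 genes called of 13830 with an adjusted p.

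Homer1 (ENSMUSG00000007617, protein-coding, chromosome 13, 93299635 to 93405129, plus strand) was the steadiest of the 8, with 46.4 to 75.9 CPM over all libraries. At P4 it had 50.1 and 66.9 CPM in wild type, against 56.0, 46.4 and 56.8 CPM in Kir2.1. The groups overlapped, and the log2 difference of -0.14 ± 0.16 became 0.085 without wild-type P4 replicate 2. Gene counts pool all transcript forms of a gene. They do not separate the short activity-induced form of Homer1 from the long forms, nor the transcripts of the several Bdnf promoters. Any forms of Ntrk2 are pooled in the same way.

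In all, 5 of the 8 members (Bdnf, Ntrk2, Nptx1, Nptxr and Scg2) had every Kir2.1 value below every wild-type value at P4. Of all 18188 genes, 2610 (14.4%) did so in that direction. The median log2 difference of the 8 was -0.51, beside 0.01 over all genes tested. The members were chosen with results of these data known, so the count and the median describe them and test nothing.

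Ganglion cell markers had fitted differences of the same sign at P4. All 10 of 10 markers on the list (Rbpms, Slc17a6, Sncg, Nefl, Nefm, Nefh, Thy1, Pou4f1, Pou4f2 and Isl2) had a fitted level below wild type in Kir2.1, with a median log2 difference of -1.15, and none was called (7 had an unadjusted p under 0.05, edgeR). Their summed level was 724 to 1122 CPM in the wild-type libraries and 186 to 568 CPM in the Kir2.1 libraries, and no marker was at 0 in any of them. In bulk tissue, fewer cells of a type and less RNA per cell cannot be told apart. Kir2.1 P4 replicate 2, the library with the lowest ganglion cell sum at P4, was also the lowest P4 library for every member except Nptx1. Some other marker lists also had fitted values below wild type at P4, so the shift was not shown to be particular to ganglion cells. Of the bipolar cell markers 7 of 8 were fitted below wild type (median -2.02, 3 with an unadjusted p under 0.05), although the summed level overlapped (167 to 272 CPM in wild type, 170.5 to 263 CPM in Kir2.1), with Grm6 at 0 in a wild-type library and Gng13 in a Kir2.1 library. All 4 horizontal cell markers (median -0.76, sums of 124 to 147 and 78.5 to 129 CPM) and 6 of 7 vascular markers (median -1.07, sums of 425.5 to 559 and 443 to 733 CPM) were fitted below wild type too. Other lists lay on the opposite side, with 7 of 8 Mueller glia markers (median 0.29), all 6 markers of dividing progenitors (median 0.27) and all 7 microglia markers (median 0.22) fitted above wild type. None of these was called (edgeR). The part of any marker list in the members' differences was not tested. Of the amacrine cell markers 6 of 8 were fitted below wild type (median -0.23), with sums of 1489 to 1941 CPM in wild type and 1545 to 1822 CPM in Kir2.1. Of the rod markers 6 of 8 were also fitted below (median -0.28). Chat, the marker of cholinergic amacrine cells, was at 0 in a Kir2.1 library.

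**Figure D2:**
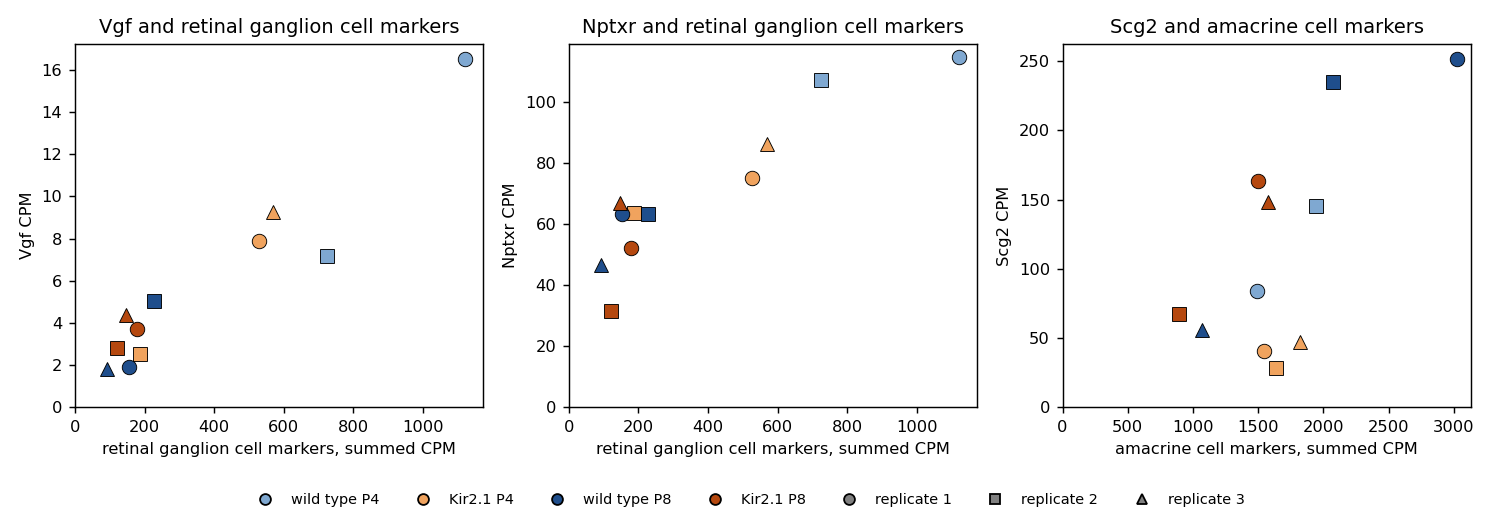
Level of Vgf, Nptxr and Scg2 in each library (CPM, vertical) against the summed CPM of a marker list (horizontal), with colour for the group and shape for the replicate; the pairs were picked after the values were seen. Wild-type P4 replicate 1 is highest for ganglion cell markers, Vgf and Nptxr, and wild-type P8 replicate 1 is highest for amacrine markers and Scg2.

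At P8, Kir2.1 replicate 2 was the lowest Kir2.1 library for Ntrk2, Nptx1, Nptxr, Homer1, Scg2 and Vgf and the highest for Bdnf. In the fit to all libraries, 6 of the 8 members had a fitted level below wild type in Kir2.1 and Bdnf and Vgf one above it. The median log2 difference was -0.24, beside 0.0034 over all genes. None of the 8 was called by edgeR, against 0 genes (0%) of the whole table, and 1 (Ntrk2) had an unadjusted p under 0.05, beside 1240 genes (6.82%). DESeq2 called 0 members and 3 genes in all, and voom 0 of either. Homer1 was the single member whose groups did not overlap, in the direction that 930 genes (5.11%) shared.

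Ntrk2 had 171, 141 and 81.4 CPM in wild type at P8, against 87.5, 61.6 and 98.9 CPM in Kir2.1. Wild-type replicates 1 and 2 were above all Kir2.1 values and replicate 3 was among them. The log2 difference was -0.66 ± 0.27 (unadjusted p = 0.0288, adjusted p = 0.699, edgeR), and -0.91 with an adjusted p of 0.0614 without wild-type P8 replicate 3. The fit that dropped replicate 1 gave -0.43. In the authors' deposited table it was -0.93, with an adjusted p of 0.00110, and Ntrk2 was the single member called there at P8, among 974 genes of 13396.

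Scg2 had 251, 235 and 55.6 CPM in the wild-type P8 libraries and 163, 67.3 and 148 CPM in Kir2.1. The wild-type group held both the highest and the lowest value, and the log2 difference was -0.51 ± 0.47 (adjusted p = 0.788, edgeR). It was -0.94 with an adjusted p of 0.141 without wild-type P8 replicate 3, -0.20 without replicate 1 and -0.21 without Kir2.1 P8 replicate 2. Homer1 had 75.9, 70.6 and 57.8 CPM in wild type against 57.3, 55.2 and 56.7 CPM in Kir2.1. The lowest wild-type value was just above the highest Kir2.1 value, and the log2 difference was -0.27 ± 0.14 (adjusted p = 0.699, edgeR).

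The pentraxin genes overlapped at P8. Nptx1 had 40.8, 47.7 and 21.2 CPM in wild type, against 32.9, 27.8 and 35.2 CPM in Kir2.1, for a log2 difference of -0.19 ± 0.24. Nptx2 had 24.0, 35.1 and 16.8 CPM in wild type, against 18.6, 20.3 and 23.7 CPM in Kir2.1 (-0.28 ± 0.31). Nptxr had 63.1, 63.2 and 46.5 CPM in wild type, against 51.9, 31.5 and 66.8 CPM in Kir2.1 (-0.20 ± 0.23). Wild-type replicate 3 was the lowest wild-type library for all 3 genes, and without it the Nptx1 difference was -0.47. The direction turned for Nptx1 (0.046) and Nptx2 (0.036) when wild-type replicate 2 was left out, and for Nptxr (0.044) when Kir2.1 replicate 2 was.

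Bdnf and Vgf lay above wild type at P8 by amounts smaller than their standard errors. Bdnf had 2.02, 3.06 and 7.16 CPM in wild type, against 4.56, 6.16 and 2.95 CPM in Kir2.1 (log2 difference 0.15 ± 0.44). The wild-type P8 replicate 3 value was the highest of all 11 libraries, whereas for Ntrk2, Nptx1, Nptx2, Nptxr, Homer1, Scg2 and Vgf that library was the lowest of its group. The Bdnf difference was 0.83 without it, -0.18 without wild-type replicate 1 and -0.12 without Kir2.1 replicate 2. Vgf had 1.92, 5.02 and 1.79 CPM in wild type, against 3.73, 2.82 and 4.37 CPM in Kir2.1 (0.32 ± 0.54). The Vgf difference ran from 0.067 (wild-type P8 replicate 3 left out) to 0.97 (replicate 2 left out).

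**Figure D3:**
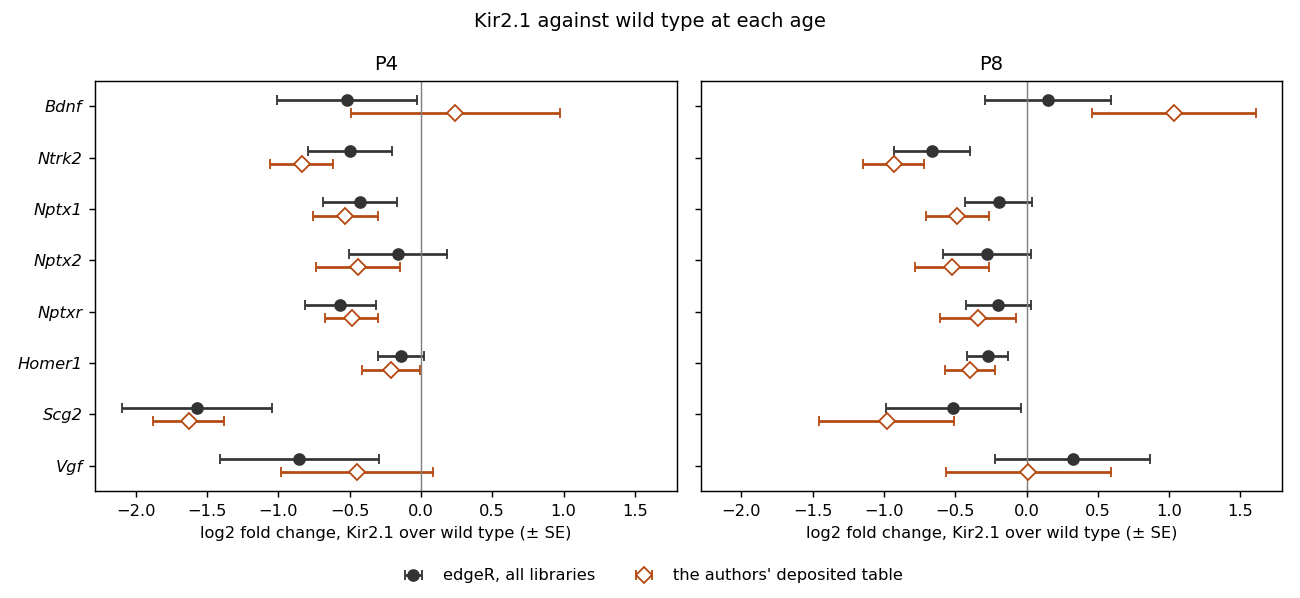
Log2 ratio of Kir2.1 to wild type for each member at P4 (left) and P8 (right), with bars for ± 1 standard error; black circles are the edgeR fit to all libraries and open diamonds the authors' deposited table. All 8 circles are left of 0 at P4, and Scg2 lies farthest at -1.57; at P8 Bdnf and Vgf lie right of 0.

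At P8, all 8 amacrine markers had a fitted level below wild type in Kir2.1 (median log2 difference -0.47, 0 called). Their sums were 1070 to 3023 CPM in wild type and 890 to 1577 CPM in Kir2.1, with no marker at 0. All 8 rod markers were fitted above wild type (median 0.90, 0 called), with sums of 752.5 to 6837 CPM in wild type. The 8 bipolar cell markers (median 0.18) and 6 markers of dividing progenitors (median 0.60) were fitted above wild type as well. So were all 7 microglia markers (median 0.44) and 7 of 8 Mueller glia markers (median 0.15). The 4 retinal astrocyte markers lay below (median -0.30). Of 5 pigment epithelium markers 2 were tested and lay above (median 4.99, 2 with an unadjusted p under 0.05, edgeR). Their list summed to 0.163 to 0.367 CPM in wild type and 1.96 to 15.65 CPM in Kir2.1. These lists had 0 called. Wild-type replicate 3 had the lowest amacrine sum and the highest rod sum of its group. Ganglion cell marker sums overlapped, at 91.2 to 228 CPM in wild type and 122 to 179 CPM in Kir2.1. The part of these marker differences in the members' values was not tested.

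Whether the genotype difference itself differed between ages was tested as an interaction. No member was called (smallest adjusted p = 0.9998, edgeR), against 0 genes (0%), with 0 members and 562 genes (3.09%) at an unadjusted p under 0.05. DESeq2 and voom called 0 genes. The estimates for Scg2 (1.06 ± 0.71 on the log2 scale) and Vgf (1.18 ± 0.78) were positive, which means a smaller or opposite difference at P8 than at P4. Leaving out a library moved Scg2 between 0.61 (wild-type P4 replicate 2 left out) and 1.41 (replicate 1 left out). It moved Vgf between 0.46 (wild-type P4 replicate 1) and 1.82 (wild-type P8 replicate 2). The difference seen for Scg2 at P4 was therefore not shown to be larger than that at P8.

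Between P4 and P8, 1 of 8 members was called in Kir2.1 retinas, Scg2, which rose 3.28-fold, where the test called 3029 genes (16.7%), 1442 of them higher (7.93%) and 1587 lower (8.73%). At an unadjusted p under 0.05, 2 members (Scg2 and Nptxr) and 5394 genes (29.7%) stood. Its 3 Kir2.1 values at P8 (67.3 to 163 CPM) were all above those at P4 (28.0 to 47.3 CPM), a separation in that direction shared by 19.4% of all genes. The log2 change was 1.71 ± 0.49 (adjusted p = 0.0326, edgeR). The call was lost without Kir2.1 P4 replicate 1 (adjusted p = 0.102), 2 (0.109) or 3 (0.0653) and without Kir2.1 P8 replicate 1 (0.103) or 3 (0.0963), while the estimate stayed between 1.48 and 2.02. It was also lost with the replicate number as a block (adjusted p = 0.0566, edgeR).

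In wild type the P8 values of Scg2 enclosed those at P4, and the log2 change was 0.65 ± 0.54 (adjusted p = 0.566, edgeR). Leaving out wild-type P4 replicate 1 gave 0.31, and leaving out replicate 2 gave 1.11. The 2 age comparisons differ by the interaction above, which was not called, so Scg2 was not shown to rise more in Kir2.1 than in wild type.

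In wild type, 0 of the 8 members were called between the ages, against 798 genes (4.39%), of which 652 (3.58%) were lower at P8. At an unadjusted p under 0.05, 2 members and 3563 genes (19.6%) stood. Nptxr and Vgf came nearest. Nptxr went from 115 and 107 CPM at P4 to 63.1, 63.2 and 46.5 CPM at P8, with no overlap, and its log2 change was -0.95 ± 0.25 (adjusted p = 0.0547, edgeR). Vgf went from 16.5 and 7.19 CPM to 1.92, 5.02 and 1.79 CPM, also with no overlap, a change of -2.02 ± 0.57 (adjusted p = 0.0717, edgeR). Voom called neither, and DESeq2 called both, with adjusted p-values of 0.0105 for Nptxr and 0.0114 for Vgf, among 1545 of 16775 genes that it called there. Without a library, Nptxr stayed between -1.03 and -0.81 and was called in 3 of 11 fits, and Vgf ran from -2.67 (without wild-type P8 replicate 2) to -1.30 (without wild-type P4 replicate 1) and was called in 3 of 11. A separation of the ages in the lower direction was shared by 3 members (Nptx1, Nptxr and Vgf) and by 16.9% of all genes.

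In Kir2.1 the log2 changes of the same 2 genes were -0.58 ± 0.23 for Nptxr (adjusted p = 0.109, edgeR) and -0.84 ± 0.53 for Vgf (adjusted p = 0.325). Nptxr ran from -0.84 without Kir2.1 P8 replicate 3, the single such fit that called it (adjusted p = 0.0383, edgeR), to -0.34 without replicate 2. Vgf ran from -1.24 without Kir2.1 P4 replicate 2 to -0.51 without replicate 3. The difference between the genotypes is the interaction, in which neither was called. Nptx1 values did not overlap between the ages in Kir2.1 (36.2 to 42.7 CPM at P4, 27.8 to 35.2 CPM at P8), in a direction shared by 18.7% of genes, with a log2 change of -0.27 ± 0.23. Bdnf, Ntrk2, Nptx2 and Homer1 overlapped between the ages in both genotypes. Their log2 changes lay between -0.27 (Nptx2 in Kir2.1) and 0.50 (Bdnf in Kir2.1). That Bdnf change was 0.23 without Kir2.1 P8 replicate 2 and 0.74 without replicate 3.

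Over the same interval 9 of the 10 ganglion cell markers fell in wild type (beside 3.58% of all genes) and 8 fell in Kir2.1 (beside 8.73%), where the neurofilament gene Nefh rose (edgeR; named after its values were seen). Their sum went from 724 to 1122 CPM at P4 to 91.2 to 228 CPM at P8 in wild type, and from 186 to 568 CPM to 122 to 179 CPM in Kir2.1. Vgf and Nptxr were highest in wild-type P4 replicate 1, the library with the highest ganglion cell sum. Other cell types moved as well. All 6 markers of dividing progenitors fell in both genotypes (median log2 change -4.38 in wild type and -4.17 in Kir2.1). In Kir2.1 all 8 rod markers (median 3.57) and 7 of 8 bipolar cell markers (median 4.90) rose, beside 7.93% of all genes. In wild type the medians of these lists were 2.35 and 2.44 with 0 called, and 8 rod and 6 bipolar markers had an unadjusted p under 0.05 (edgeR). The part of these marker changes in the members' age differences was not tested.

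**Figure D4:**
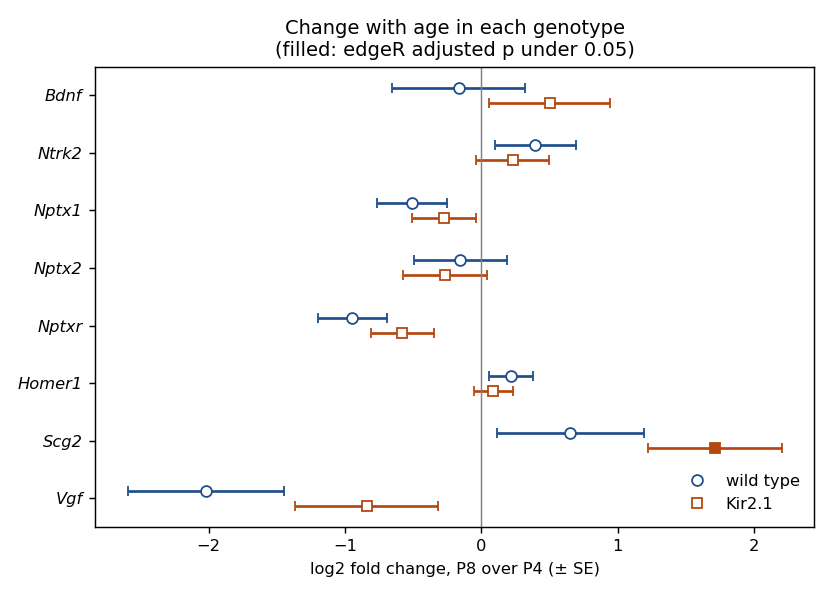
Log2 fold change of P8 over P4 for each member in wild type (blue circles) and Kir2.1 (orange squares), with bars for ± 1 standard error and a filled symbol for an edgeR adjusted p under 0.05. Scg2 in Kir2.1 (1.71) is the single filled symbol, and Vgf in wild type (-2.02) has the largest change.

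Partners of the members were followed in 6 lists of 114 genes, written with earlier results of these data known. None of the listed genes was called in either genotype comparison or in the interaction (edgeR). The lists differed in where their fitted values lay. Of the 18 genes of granins and dense-core vesicle cargo processing, the pathway of Scg2 and Vgf, 16 were below wild type in Kir2.1 at P4 (median log2 difference -0.45, beside 0.01 for all genes) and 9 did so with no overlap, beside 14.4% of all genes. At P8, 16 were again below (median -0.28). At P4 Cadps, which primes dense-core vesicles for release, had 277 ± 50.5 CPM in wild type (SD, n = 2) against 191 ± 19.2 CPM in Kir2.1 (SD, n = 3). Its log2 difference was -0.54 ± 0.15 (adjusted p = 0.677, edgeR). Also at P4, Rab3a, a vesicle GTPase, differed by -0.62 ± 0.19, and Cpe, a carboxypeptidase that trims neuropeptides, by -0.49 ± 0.18, both with an adjusted p of 0.677 (edgeR). Cadps, Rab3a and Cpe are named because they were called higher with age in Kir2.1, a call that low Kir2.1 P4 values favour. Their P4 differences share those values and test nothing. The granins Chga (-0.35 ± 0.20) and Chgb (0.07 ± 0.11) had smaller differences at P4.

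For this list 4 genes rose between P4 and P8 in Kir2.1 and none fell, where 7.93% of all genes rose and 8.73% fell. They were Chgb (log2 change 0.33 ± 0.10), Cadps (0.73 ± 0.14), Rab3a (0.68 ± 0.17) and Cpe (0.56 ± 0.16), with edgeR adjusted p-values from 0.00369 to 0.0373. No gene of the list was called between the ages in wild type, and at an unadjusted p under 0.05 there was 1, beside 4.39% and 19.6% of all genes. The difference between the genotypes is the interaction, in which no listed gene was called.

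In the neurotrophin list, 17 of 20 genes were tested, and at P4 10 lay above wild type and 7 below (median 0.03), with 8 and 9 at P8 (median -0.0059). Ngfr, the p75 neurotrophin receptor, was the single listed gene called between the ages in wild type, where it fell from 72.8 ± 21.1 CPM (SD, n = 2) to 26.2 ± 7.34 CPM (SD, n = 3). The log2 change was -1.47 ± 0.26 in wild type (adjusted p = 0.00631, edgeR) and -1.88 ± 0.24 in Kir2.1 (adjusted p = 0.00041). In wild type 3.58% of all genes fell. In Kir2.1, 4 of the 17 genes fell and 1 rose, beside 8.73% and 7.93% of all genes. Besides Ngfr, those that fell included Sorcs2, a receptor that pairs with p75 (-0.63 ± 0.13), and Sos1, an exchange factor that passes TrkB signals to Ras (-0.40 ± 0.10). Ntrk3, the receptor of neurotrophin 3, rose by 1.18 ± 0.37 on the log2 scale (adjusted p = 0.0454).

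Among the 19 genes of AMPA receptors and their partners, on which pentraxins act, 14 were below wild type at P4 (median -0.18) and 16 at P8 (median -0.36). Gria4 and Gria1 encode AMPA receptor subunits, GluA4 being a main target of pentraxins on interneurons. Gria4 differed by -0.57 ± 0.24 at P8 (adjusted p = 0.699, edgeR) and Gria1 by -0.60 ± 0.33 (adjusted p = 0.699). With age in Kir2.1, 1 of the 19 was called, beside 16.7% of all genes. It was Gpc6, a glypican that recruits AMPA receptors, which fell by 0.83 ± 0.16 on the log2 scale.

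Of the 18 Homer scaffold partners, 15 lay below wild type at P4 (median -0.18) and 14 at P8 (median -0.30). Grm5, the metabotropic receptor that HOMER1 binds, had the largest difference among the named partners, with 10.1 ± 4.61 CPM in the wild-type libraries at P4 (SD, n = 2) against 3.83 ± 2.60 CPM in those of Kir2.1 (SD, n = 3). Its log2 difference was -1.40 ± 0.42 (adjusted p = 0.677, edgeR). In Kir2.1 Grm5 rose 4.14-fold by P8, to 15.8 ± 1.11 CPM. It is named for that rise, a call that low Kir2.1 P4 values favour, so its P4 difference tests nothing. The scaffold gene Dlg4 (log2 change 0.80 ± 0.14) and the calcium channel gene Itpr1 (1.08 ± 0.32) also rose in Kir2.1, and the scaffold genes Dlgap3 (-0.60 ± 0.18) and Dlgap2 (-0.89 ± 0.27) fell, which makes 5 of 18 genes called, beside 16.7% of all genes. The paralogs Homer2 and Homer3 were not called in any comparison.

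Of 18 tested genes that also belong to the late activity-regulated program, 10 lay below and 8 above wild type at P4 (median -0.03), and 12 below and 6 above at P8 (median -0.22). At P4 Nrn1, which encodes the secreted or membrane-anchored protein neuritin, had 19.4 ± 7.36 CPM in wild type (SD, n = 2) against 7.85 ± 5.75 CPM in Kir2.1 (SD, n = 3), a log2 difference of -1.31 ± 0.73 (adjusted p = 0.717, edgeR). Plk2, a kinase that acts in synaptic scaling, differed by -0.45 ± 0.37 at that age. With age in Kir2.1, Trib1 rose and Rgs2 fell, 2 of 18 genes beside 16.7% of all genes. Of the 20 transcription regulators upstream of the program, 10 lay on each side at P4 (median -0.01) and at P8 (median -0.02). Creb1 (0.11 ± 0.13) and its coactivator Crtc1 (-0.09 ± 0.15) differed at P4 by less than their standard errors. With age in Kir2.1, 4 of them rose, beside 7.93% of all genes, among them Mef2d (2.0-fold), Camk2d (1.48-fold) and Camk4 (1.81-fold), and the repressor gene Rest fell (-0.69 ± 0.16).

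**Figure D5:**
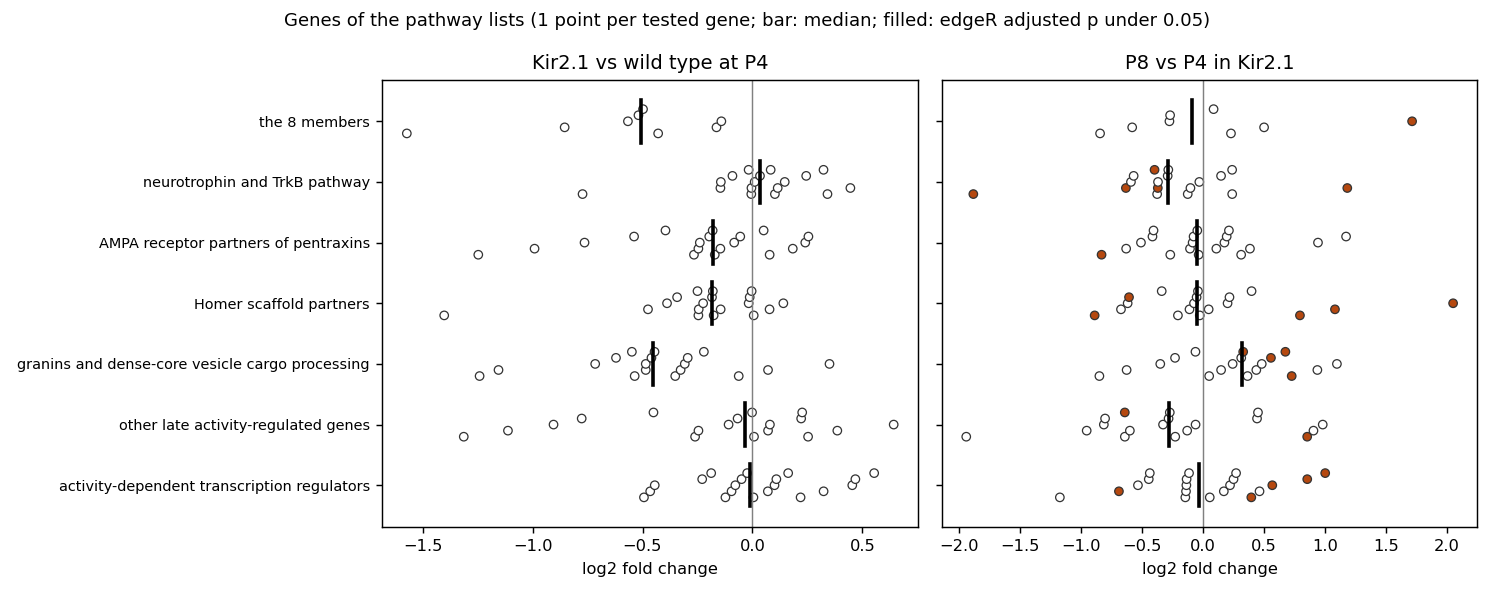
Log2 fold change of each tested gene in the 8 members and in 6 lists of related genes, for Kir2.1 against wild type at P4 (left) and P8 against P4 in Kir2.1 (right); a point is a gene, a bar the median, and a filled point has an edgeR adjusted p under 0.05. At P4 no point is filled, and the members (median -0.51) and the dense-core vesicle list (-0.45) have the lowest medians.

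The genes whose levels ran closest to each member over the 11 libraries were found by Pearson's r of log2 CPM among 15917 genes, as a description. The libraries share age, genotype and cell makeup, which all enter r. Scg2 ran with Pkp1 and Slc10a4 (r = 0.98 each), Ntrk2 with Ksr2 (0.985) and Aatk (0.976), and Nptx1 with Spock1 (0.98) and Plcb1 (0.965). Nptxr ran with Pak6 (0.952) and Efna3 (0.951), Vgf with Dpysl3 (0.955) and Wnt4 (0.944), and Homer1 with Cttnbp2 (0.967) and Man1c1 (0.96). Nptx2 ran with Pde4b (0.933) and Gabra4 (0.923). For Bdnf, the member with the lowest level per kilobase in most libraries, the closest genes were Gm43787 (0.892) and Gm26534 (0.878).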

How the data were processed

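RNA-seq libraries of mouse retina were compared by genotype and age, with groups and replicate numbers taken from the titles. The authors deposited whole-number counts per Ensembl gene for each library. The submitters' processing notes name cutadapt 1.18, STAR 2.5.0c, SAMtools 1.9, bedtools 2.26.0, HTSeq 0.6.1, DESeq2 and the build mm10, without their roles. Records that are not genes, with any alignment-sum record counted among them, made up 74.6% to 79.8% of the summed values of each file and were left out. That is not a share of reads. The authors also deposited a table per age which, per the file headers, holds a mean normalized count (a signal), a log2 fold change and standard error, a test statistic (a score), and raw and adjusted p-values. No column of per-sample values was left unused.

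Symbols matched 46488 of 47069 IDs. Coordinates, exonic lengths and biotypes came from GENCODE mouse release M21. Counts were tested with edgeR 4.0.16 in R 4.3.3 after filterByExpr (18188 genes) and TMM scaling (factors 0.964 to 1.05). The model had 4 group means over all 11 libraries (common biological coefficient of variation 0.247, 7 residual and 5.05 prior degrees of freedom). p-values were adjusted by Benjamini-Hochberg over all genes tested. Alternatives used DESeq2 1.42.0 and limma 3.58.1, other filters and scaling, fewer libraries and a replicate block. Exact permutation tests were not used, since groups of 2 or 3 cannot pass 0.05.

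The members, lists and alternatives were chosen with earlier results of these data known. The text names the 8 members, the first 2 genes of each list, up to 3 called genes of a list per direction and comparison, and the 2 genes most like each member (prior count 2, mean of at least 1 CPM).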

Additional observations from a re-analysis of the deposited data

How the results depend on the processing

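Of 752 member fold changes under the alternatives, 704 kept their direction and their side of the threshold, 18 gained a call, 6 lost one and 24 changed sign. The 2 sign changes outside the fits without a library were under voom with quality weights, Vgf between genotypes at P8 (-2.7e-05) and Nptx2 with age in wild type (0.15). DESeq2 called 34 genes at P4, 3 at P8 and 1545 with age in wild type, and 2 members there. Without a filter on low counts, 1 member was called at P4, 2 at P8, 1 in the interaction, 3 with age in wild type and 2 with age in Kir2.1, among 339, 447, 136, 2058 and 3661 of 36534 genes in that order. In that fit the prior degrees of freedom were infinite and every gene took the trend's dispersion. The quasi-likelihood dispersion used for Scg2 was 0.545 there, against a moderated value of 5.83 in the fit to 18188 filtered genes. With a mean of at least 1 CPM, 1 member was called with age in wild type, among 830 of 15994 genes. A fit to only the compared groups called 113 genes there. With a replicate block no member was called with age in Kir2.1 (0, Scg2 1.70). Same-numbered libraries correlated between -0.0757 and 0.139 in their deviations, so the numbers were not read as pairs.

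Leaving out a library gave 0 to 6 genes called at P4 (the 6 without wild-type P4 replicate 1), 0 to 219 at P8 (219 without wild-type P8 replicate 3), 0 to 1 in the interaction, 163 to 1339 with age in wild type and 1764 to 3676 with age in Kir2.1. Members called stayed at 0 in both genotype comparisons and the interaction, and were 0 to 1 with age in either genotype. A group left with 1 library was assumed to vary like the others. Fold changes that changed sign without a library ranged as follows. At P4 Nptx2 ran from -0.55 to 0.36 and Homer1 from -0.34 to 0.085. At P8 Bdnf ran from -0.18 to 0.83, Nptx1 from -0.47 to 0.046, Nptx2 from -0.50 to 0.036 and Nptxr from -0.46 to 0.044. In the interaction Ntrk2 ran from -0.42 to 0.060, Nptx1 from -0.040 to 0.47, Nptx2 from -0.64 to 0.27 and Homer1 from -0.36 to 0.066. With age, Bdnf ran from -0.85 to 0.14 and Nptx2 from -0.54 to 0.37 in wild type, and Nptx2 from -0.43 to 0.037 and Homer1 from -0.0026 to 0.14 in Kir2.1. The cause of these changes was not tested.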
